A study of Mus musculus with 12 samples.

Results

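The unfolded protein response and the integrated stress response were followed here through 32 genes in mouse airway macrophages (AMs) cultured with or without lipopolysaccharide (LPS), the cell wall component by which macrophages sense Gram-negative bacteria. All 32 were present among the 20551 genes of the count table, and all 32 passed the filter on low counts, which left 13729 genes for testing. They comprised 11 chaperones and co-chaperones of the endoplasmic reticulum (ER), 4 protein disulfide isomerases, 6 genes of ER-associated degradation, 5 sensors or transcription factors and 6 targets of the integrated stress response.

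AMs came from Scnn1b-Tg mice and from wild-type (WT) littermates, all on the C57BL/6 background and 6 weeks old, and per the study's methods female. In Scnn1b-Tg mice the club cell secretory protein promoter drives Scnn1b, which codes for the beta subunit of the sodium channel ENaC, in airway epithelial cells, and the airways become obstructed by mucus. The transgene thus acts outside the macrophages. Cells of 3 to 4 animals formed a pool, and each of 6 pools (WT 16, 17 and 18, and Scnn1b-Tg 17, 18 and 19) was divided into a culture with 100 ng/ml LPS of Pseudomonas aeruginosa for 12 h and a culture with medium alone. This gave 12 libraries in 4 groups of 3, a medium and an LPS group for each genotype. The labels describe lavage cells that adhered to plastic, whereas the study's methods describe AMs sorted by flow cytometry from digested lungs.

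The ER is where secreted and membrane proteins fold. When unfolded proteins accumulate there, the sensors IRE1 (encoded by Ern1), PERK (Eif2ak3) and ATF6 (Atf6) start the unfolded protein response. IRE1 splices the Xbp1 transcript, ATF6 is cut to release a transcription factor, and together their products raise chaperones, disulfide isomerases and the machinery that sends misfolded proteins to the proteasome. PERK, like other kinases that sense amino acid shortage, viral RNA or heme deficiency, phosphorylates the initiation factor eIF2, which slows translation while favouring that of ATF4. This branch is the integrated stress response, with targets such as Asns, Ddit3 and Trib3, and with GADD34 (Ppp1r15a), a phosphatase subunit that reverses the phosphorylation. Macrophages activated by LPS secrete large amounts of cytokines, and toll-like receptor signalling is known to engage IRE1 and XBP1. Counts per gene show neither Xbp1 splicing nor the translation of Atf4, nor any phosphorylation.

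Stretches of 5 promoters that hold an ER stress response element, the site bound by ATF6 and XBP1 together with the CCAAT-binding factor NF-Y, are shown first, because some genes with this element passed the test for LPS and others did not. They are reference sequence from RefSeq (build GRCm38.p6), written 5′ to 3′ in the direction of the gene, with the element in capitals (in Creld2 and Calr it reads on the opposite strand). The Hspa5 stretch lies at chr2:34772020-34772048 (plus strand), that of Creld2 at chr15:88819500-88819558 (plus strand), that of Syvn1 at chr19:6046512-6046570 (plus strand), that of Calr at chr8:84847055-84847113 (minus strand) and that of Canx at chr11:50325780-50325838 (minus strand). The Hspa5 stretch falls within an annotated exon of a longer transcript, and the other 4 lie outside annotated exons.
Hspa5: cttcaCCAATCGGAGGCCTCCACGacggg
Creld2: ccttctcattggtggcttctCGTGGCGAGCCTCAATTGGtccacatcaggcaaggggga
Syvn1: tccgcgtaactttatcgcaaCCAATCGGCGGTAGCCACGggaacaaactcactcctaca
Calr: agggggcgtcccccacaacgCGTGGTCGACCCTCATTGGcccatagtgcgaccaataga
Canx: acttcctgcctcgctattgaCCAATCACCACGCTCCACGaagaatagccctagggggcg

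Stretches of 4 further promoters show the shorter ERSE-II form of that element and the C/EBP-ATF element, at which ATF4 binds as a dimer with a C/EBP protein. Capitals mark ERSE-II in Herpud1 and Dnajb11 and the C/EBP-ATF element in Herpud1, Asns and Trib3. Herpud1 (chr8:94386297-94386407, plus strand) is shown because it alone among the members had both. The Dnajb11, Asns and Trib3 stretches fall within annotated exons. Dnajb11 is at chr16:22857843-22857871 (plus strand), Asns at chr6:7693215-7693242 (minus strand) and Trib3 at chr2:152344029-152344056 (minus strand).
Herpud1: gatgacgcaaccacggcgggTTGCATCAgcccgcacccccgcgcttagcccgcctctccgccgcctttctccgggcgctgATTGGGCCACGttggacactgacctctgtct
Dnajb11: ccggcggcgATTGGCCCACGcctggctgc
Asns: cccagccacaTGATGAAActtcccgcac
Trib3: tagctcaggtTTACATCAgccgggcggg

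Promoter windows of 250 bases before to 50 bases after the RefSeq start were searched on both strands and were at hand for 28 of the 32 members. The ER stress response element was searched as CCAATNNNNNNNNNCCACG and was found in 8 of these 28 windows (Hspa5, Hsp90b1, Calr, Canx, Dnajc3, Creld2, Pdia6 and Syvn1), and in 39 of 32851 windows of all genes (0.12%). ERSE-II, searched as ATTGGNCCACG, was found in 2 member windows and in 12 of all windows (0.04%). The C/EBP-ATF element, searched as TGATGNAA, was found in Herpud1, Trib3, Chac1 and Asns, and in 3.97% of all windows. The core TGACGTGG was in no member window and in 0.68% of all windows. The pentamers CCACG and CCAAT, which are part of the ER stress response element, each occurred in 23 of the 28 member windows, against 32.77% and 37.41% of all windows. A match of letters is a description and not a shown binding site.

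**Figure D1:**
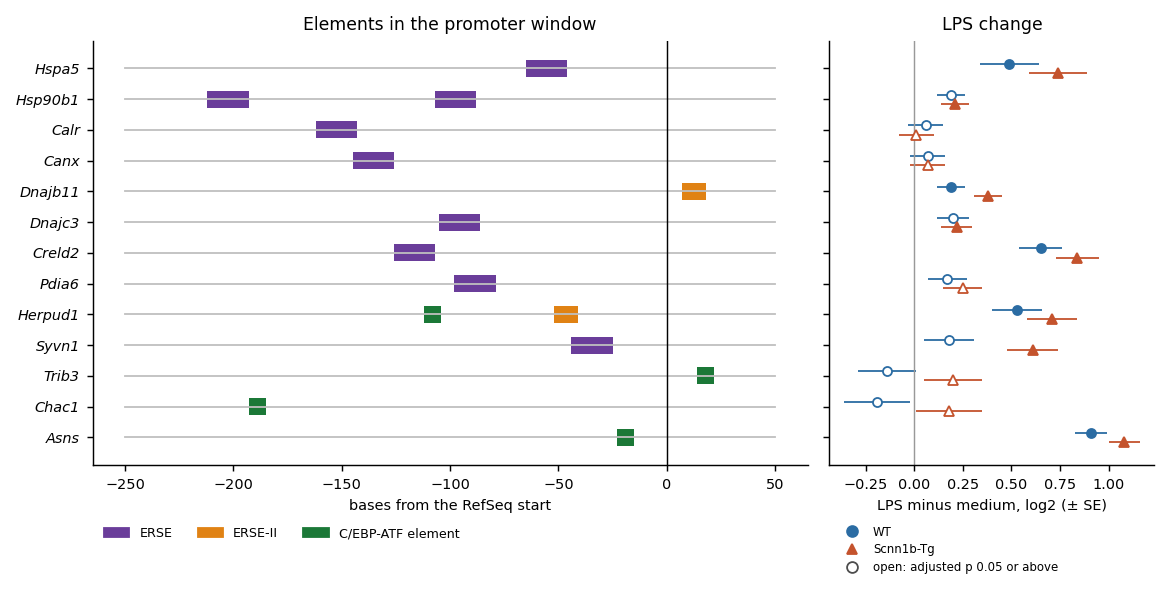
Left, position of each element in bases from the RefSeq start for the 13 members with a match. Right, the fitted change with LPS on the log2 scale (± SE) in WT (circles) and Scnn1b-Tg (triangles), filled where the adjusted p was under 0.05. Calr and Canx, which carry the ER stress response element, lie near 0 in both genotypes, whereas Creld2 lies at 0.65 and 0.84.

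Library totals ranged from 48191248 to 60896505 deposited counts, and the lowest member value was 214 counts (Chac1), so no member was near the floor of 8 counts. AM markers summed to 14950 to 15366 CPM (counts per 1000000 of the TMM-scaled library size) in WT medium and 16597 to 20195 CPM in Scnn1b-Tg medium, and to 11790 to 14430 and 13882 to 18892 CPM with LPS. Most of these sums in medium was Chil3, at 9545 to 10329 CPM in WT and 11503 to 14406 CPM in Scnn1b-Tg. The 12 AM markers split with LPS. Adgre1, Marco and Car4 rose in each genotype, and 6 fell in WT and 7 in Scnn1b-Tg (edgeR). Among those that fell, Siglecf stood at 103 to 128 CPM in medium and 5.08 to 13.5 CPM with LPS. Scnn1b was at most 0.755 CPM in libraries of either genotype. Dendritic cell markers summed to 2.74 to 3.6 CPM in WT and 5.17 to 7.28 CPM in Scnn1b-Tg in medium, and to 9.37 to 10.1 and 13.4 to 20.2 CPM with LPS, so the genotypes did not overlap. They were led by Ccr7, which passed as higher in Scnn1b-Tg in medium (4.17 to 5.8 against 1.85 to 2.33 CPM, edgeR). Neutrophil markers summed to 12.4 to 14.6 CPM in WT and 18.1 to 22.1 CPM in Scnn1b-Tg in medium, and to 9.18 to 12.1 and 12.4 to 16.2 CPM with LPS, again without overlap, with 0 of 3 tested passing by genotype and S100a9 at or under the floor. The 3 did not move together with LPS. In each genotype S100a8 passed as higher, and Csf3r and Cxcr2 passed as lower (edgeR). In WT, S100a8 stood at 2 to 3.89 CPM in medium and 6 to 9.25 CPM with LPS. Csf3r stood at 5.65 to 7.54 CPM in WT medium and 2.19 to 3.61 CPM in WT LPS. Monocyte markers reached at most 3.78 CPM and T and NK cell markers 1.52 CPM, and erythroid markers were at or under the floor. B and plasma cell markers (9 genes) went from at most 5.57 CPM in medium to 54.7 to 122 CPM with LPS through Sdc1, while Ms4a1 and Mzb1 were at or under the floor in all libraries. The 12 airway and alveolar epithelial markers, led by Scgb1a1 and Sftpc, summed to 87.4 to 132 CPM in WT and 39.5 to 84.1 CPM in Scnn1b-Tg libraries, with 0 of 10 tested passing by genotype (3 in medium and 7 with LPS at an unadjusted p under 0.05). In bulk RNA, fewer cells of a type and less RNA per cell cannot be told apart. Tnf, Il6, Il1b and Cxcl2 together stood at 22.1 to 58 CPM in medium and 2237 to 3848 CPM with LPS, so each library answered as its treatment label says. The libraries of both pools numbered 17 stood apart in transcript length. In them, genes above 6306 bases lay 0.16 to 0.36 higher on the log2 scale, relative to genes under 2272 bases, than in their group's mean, against -0.22 to 0 in the other 8 libraries.

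The members spanned a wide range of abundance, given here per kilobase of exon so that genes can be compared. The highest were Calr, a calcium-binding lectin chaperone, at 677 CPM per kb over all libraries, Hspa5, which encodes the ER chaperone BiP, at 411, and P4hb, a disulfide isomerase, at 382. Chaperones reached down to 18.7 CPM per kb (Hyou1), and the 4 disulfide isomerases lay between 156 and 382. Genes of ER-associated degradation ranged from 12.9 (Derl2) to 85.0 (Derl1) CPM per kb. Among sensors and transcription factors, Xbp1 was at 120 and Atf4 at 88.2 CPM per kb, whereas the sensors Atf6, Eif2ak3 and Ern1 were at 6.62, 5.90 and 3.62. Targets of the integrated stress response lay between 3.5 (Chac1) and 44.4 (Asns) CPM per kb. The 32 genes summed to a mean of 11407 CPM in medium and 12973 CPM with LPS in WT, and 10932 and 12873 CPM in Scnn1b-Tg. These sums are TMM-scaled and are not shares of the raw counts.

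LPS was compared with medium in each genotype to ask which arm of the response moved. A set of ER chaperones and Herpud1 rose, and so did Asns and Ppp1r15a, whereas Eif2ak3 fell, and the fitted changes of the abundant Calr, Canx, Pdia3 and P4hb lay within 0.07 of 0 on the log2 scale in both genotypes. Of the 32 members, 10 rose and 2 fell in WT AMs (edgeR quasi-likelihood test, adjusted p under 0.05). Over all genes tested the shares were 15.5% higher and 16.2% lower. In Scnn1b-Tg AMs 15 rose and 1 fell, where 19.3% of all genes were higher and 18.7% lower. The median log2 change of the members was 0.17 in WT and 0.22 in Scnn1b-Tg, against 0.003 and -0.015 over all genes. In both genotypes 11 members passed, all 11 in the same direction, and 15 passed in neither. Taken by pool, 16 members were higher with LPS in all 6 pools and 4 (Edem1, Eif2ak3, Ddit3 and Sesn2) were lower in all 6. Many genes moved with LPS, 40.8% in WT and 45.8% in Scnn1b-Tg at an unadjusted p under 0.05 (edgeR), against 53.1% and 65.6% of members. The shares of all genes that agreed over the pools, or whose treatments did not overlap, were not counted. Such statements about members below are descriptions only. The genotypes share no library in these comparisons, and their log2 changes had Pearson's r = 0.81 over the 32 members and 0.80 over all genes, given as a description.

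**Figure D2:**
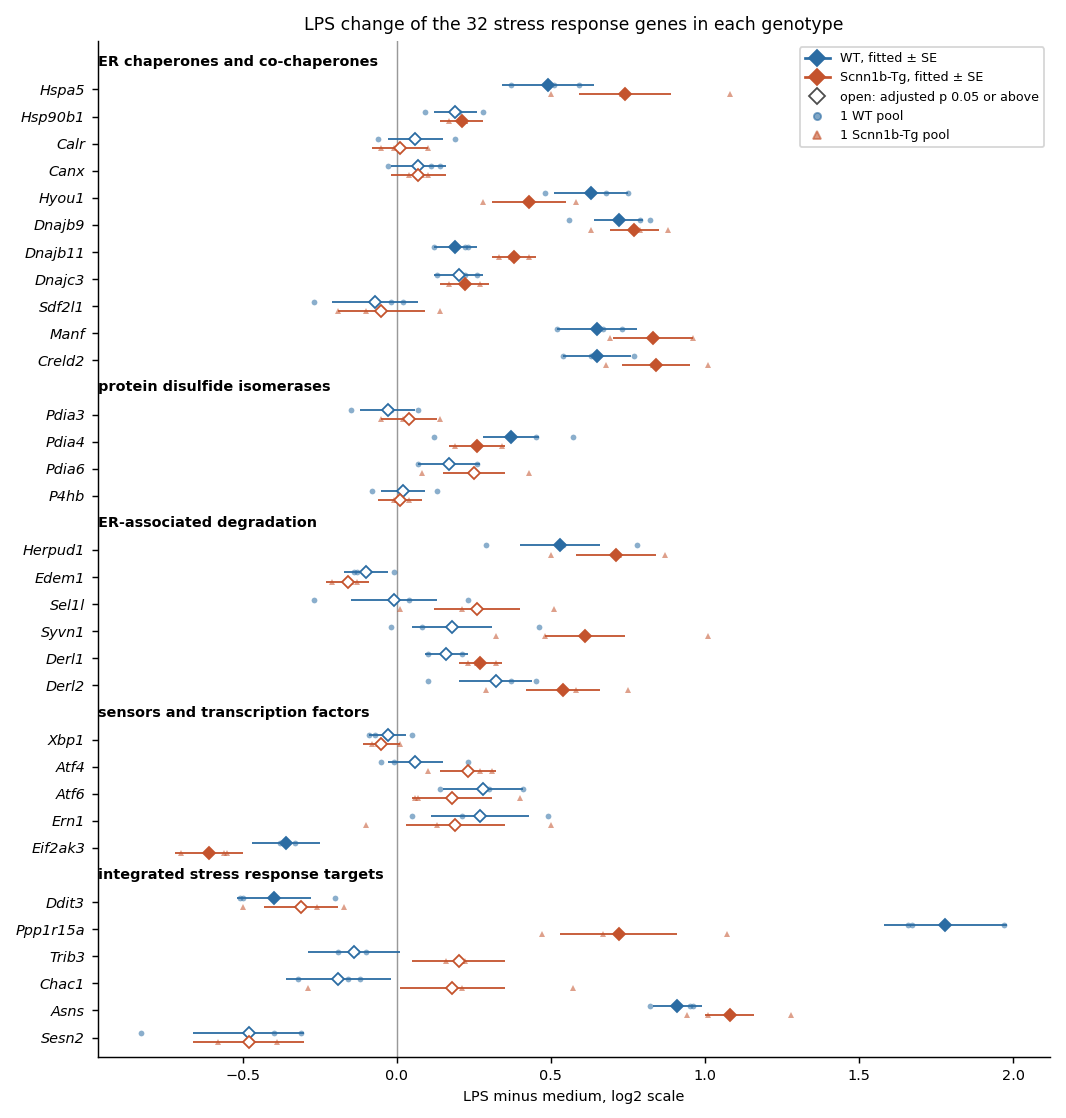
Change with LPS on the log2 scale for the 32 members, grouped by role. Diamonds are fitted changes ± SE in WT (blue) and Scnn1b-Tg (orange), filled where the adjusted p was under 0.05, and small symbols are the 3 pools of each genotype. Ppp1r15a in WT lies farthest from 0 at 1.78, and Asns lies at 0.91 and 1.08.

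BiP is the chaperone that holds the sensors inactive and is a classical target of ATF6. Hspa5, its gene, stood at 1442, 1528 and 1452 CPM in WT medium and at 2176, 2177 and 1871 CPM in WT LPS (pools 16, 17 and 18). In Scnn1b-Tg it stood at 1644, 888 and 1312 CPM in medium and at 2321, 1870 and 2177 CPM with LPS (pools 17, 18 and 19). Treatments did not overlap in either genotype, and the Scnn1b-Tg medium 18 library was far below the other 2 of its group. The log2 change was 0.49 ± 0.15 (SE) in WT (adjusted p = 0.0266, edgeR) and 0.74 ± 0.15 in Scnn1b-Tg (adjusted p = 0.00211). Without the Scnn1b-Tg medium 18 library the Scnn1b-Tg value is the lowest of its alternatives, 0.56, and remains called. In WT the call was lost when WT medium 16 or 17 or WT LPS 17 or 18 was left out (adjusted p 0.0531 to 0.0943).

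Dnajb9, a co-chaperone that returns IRE1 to its BiP-bound state and a target of XBP1, had the largest change of a chaperone gene in WT. Its values were 64.5, 59.9 and 60.7 CPM in WT medium and 114, 103 and 89.8 CPM in WT LPS. In Scnn1b-Tg they were 69.0, 60.5 and 56.0 CPM in medium and 107, 105 and 103 CPM with LPS. Every LPS library lay above every medium library, and the log2 change was 0.72 ± 0.08 in WT (adjusted p = 5.62e-05, edgeR) and 0.77 ± 0.08 in Scnn1b-Tg (adjusted p = 2.68e-05).

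Manf and Creld2 encode small ER proteins that are themselves secreted under stress. Manf stood at 176, 142 and 171 CPM in WT medium and 293, 203 and 272 CPM in WT LPS, and at 147, 163 and 147 CPM in Scnn1b-Tg medium and 237, 290 and 285 CPM in Scnn1b-Tg LPS. The lowest LPS values were those of both pools numbered 17, yet the treatments did not overlap. Creld2 stood at 120, 108 and 137 CPM in WT medium and 205, 156 and 211 CPM in WT LPS, and at 121, 117 and 123 CPM in Scnn1b-Tg medium and 194, 208 and 249 CPM in Scnn1b-Tg LPS. The log2 changes were 0.65 ± 0.13 and 0.83 ± 0.13 for Manf and 0.65 ± 0.11 and 0.84 ± 0.11 for Creld2 in WT and Scnn1b-Tg, with adjusted p between 0.000153 and 0.00264 (edgeR). Exons of Manf overlap those of other genes over 4.7% of their length, and counting ignored strand. Dnajb9, Manf and Creld2 passed in both genotypes under every alternative tried.

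The other chaperones changed less. Hyou1, an HSP70-like chaperone that exchanges nucleotide on BiP, rose by a log2 of 0.63 ± 0.12 in WT (102 to 111 CPM in medium, 142 to 187 CPM with LPS, adjusted p = 0.0026) and 0.43 ± 0.12 in Scnn1b-Tg (93.3 to 133 and 126 to 198 CPM, adjusted p = 0.0182). The Scnn1b-Tg ranges overlapped, and the call there was lost without Scnn1b-Tg medium 17 or 18 or Scnn1b-Tg LPS 17 or 19 (adjusted p 0.05 to 0.103). Dnajb11, a BiP co-chaperone, rose by 0.19 ± 0.07 in WT (adjusted p = 0.0475) and 0.38 ± 0.07 in Scnn1b-Tg (adjusted p = 0.000865). Its WT call held in 7 of 21 alternatives and was lost when any library other than WT medium 18 was left out (adjusted p 0.056 to 0.168). Hsp90b1, the ER member of the HSP90 family, and Dnajc3, an inhibitor of PERK, rose in Scnn1b-Tg by 0.21 ± 0.07 (adjusted p = 0.0343) and 0.22 ± 0.08 (adjusted p = 0.0424). Their WT changes were 0.19 ± 0.07 (adjusted p = 0.0613) and 0.20 ± 0.08 (adjusted p = 0.0662), and with the pool as a block these passed too (adjusted p = 0.0284 and 0.0214), as did Hsp90b1 without WT medium 18 (0.27, adjusted p = 0.0198). The Scnn1b-Tg calls were lost when 1 of several libraries was left out, for Hsp90b1 6 of them (the 3 Scnn1b-Tg medium libraries, Scnn1b-Tg LPS 17 and 19, and WT LPS 18, adjusted p 0.0504 to 0.142) and for Dnajc3 7 (the same 6 and WT medium 16, adjusted p 0.0532 to 0.163). Exons of Hsp90b1 overlap other genes over 10.3% of their length.

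Calr and its membrane-bound relative Canx, which hold glycoproteins until folded, did not pass. Calr stood at 1914, 2104 and 1747 CPM in WT medium and 1985, 2393 and 1677 CPM in WT LPS, and at 2234, 1779 and 1763 CPM in Scnn1b-Tg medium and 2215, 1715 and 1887 CPM in Scnn1b-Tg LPS. Pools differed more than treatments, and the interval of its log2 change was -0.11 to 0.23 in WT and -0.16 to 0.18 in Scnn1b-Tg. For Canx the intervals were -0.10 to 0.24 and -0.10 to 0.25. Sdf2l1, part of a BiP complex, had changes of -0.07 ± 0.14 and -0.05 ± 0.14.

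Disulfide isomerases form and rearrange the cysteine bonds of folding proteins. Of the 4, Pdia4 rose, from 299 to 330 CPM in WT medium to 359 to 448 CPM in WT LPS (log2 0.37 ± 0.09, adjusted p = 0.0113) and from 317 to 403 CPM to 370 to 481 CPM in Scnn1b-Tg (0.26 ± 0.09, adjusted p = 0.0466). The WT groups did not overlap, and the Scnn1b-Tg groups did. Its WT call was lost without WT medium 17 (adjusted p = 0.0536) and its Scnn1b-Tg call without any of 8 libraries (WT medium 16, WT LPS 17 and 18, the 3 Scnn1b-Tg medium libraries, Scnn1b-Tg LPS 17 and 19, adjusted p 0.0514 to 0.17). Pdia6 had changes of 0.17 ± 0.10 (adjusted p = 0.246) and 0.25 ± 0.10 (adjusted p = 0.08), of which the second passed with the pool as a block (adjusted p = 0.026) and without WT LPS 16 or 17 (adjusted p 0.0335 and 0.0487). Pdia3 and P4hb, the most abundant isomerases per kb, had intervals of -0.20 to 0.14 and -0.11 to 0.15 in WT and -0.13 to 0.20 and -0.12 to 0.14 in Scnn1b-Tg. The summed level of the 15 chaperones and isomerases was 9145 ± 304 CPM in medium and 10511 ± 924 CPM with LPS in WT, and 8828 ± 1142 and 10461 ± 914 CPM in Scnn1b-Tg (SD, n = 3 each).

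ER-associated degradation recognises misfolded proteins, moves them through a membrane channel and ubiquitinates them. Herpud1, a scaffold of this machinery, stood at 98.6, 126 and 127 CPM in WT medium and 169, 154 and 185 CPM in WT LPS, and at 116, 108 and 113 CPM in Scnn1b-Tg medium and 192, 154 and 206 CPM in Scnn1b-Tg LPS. No medium library reached any LPS library, and the log2 change was 0.53 ± 0.13 in WT (adjusted p = 0.00814, edgeR) and 0.71 ± 0.13 in Scnn1b-Tg (adjusted p = 0.00115). Syvn1, the ubiquitin ligase HRD1, stood at 77.3, 81.1 and 80.2 CPM in WT medium and 107, 85.9 and 78.9 CPM in WT LPS, and at 83.4, 58.2 and 64.4 CPM in Scnn1b-Tg medium and 104, 117 and 89.6 CPM in Scnn1b-Tg LPS. Treatments overlapped in WT and not in Scnn1b-Tg, with log2 changes of 0.18 ± 0.13 (adjusted p = 0.362) and 0.61 ± 0.13 (adjusted p = 0.00427). The difference between these 2 changes was 0.43 ± 0.19 (interval 0.06 to 0.80, unadjusted p = 0.0457, adjusted p = 0.825) and did not pass.

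The derlins, which are part of the channel, rose in Scnn1b-Tg, Derl1 by a log2 of 0.27 ± 0.07 (adjusted p = 0.00783) and Derl2 by 0.54 ± 0.12 (adjusted p = 0.0036). In WT their changes were 0.16 ± 0.07 (adjusted p = 0.1) and 0.32 ± 0.12 (adjusted p = 0.0594), and both passed with the pool as a block (adjusted p = 0.0489 and 0.0411). Derl2 in WT also passed without WT LPS 17 (0.42) or Scnn1b-Tg LPS 17 (0.32). Exons of Derl2 overlap another gene over 2.9% of their length. Edem1, which targets glycoproteins for degradation, was lower in all 6 pools at -0.10 ± 0.07 and -0.16 ± 0.07, the second of which passed with the pool as a block (adjusted p = 0.0406). Sel1l, the partner of HRD1, had changes of -0.01 ± 0.14 and 0.26 ± 0.14 (adjusted p = 0.983 and 0.171), and in Scnn1b-Tg it passed without Scnn1b-Tg LPS 18 (0.41, adjusted p = 0.0216).

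**Figure D3:**
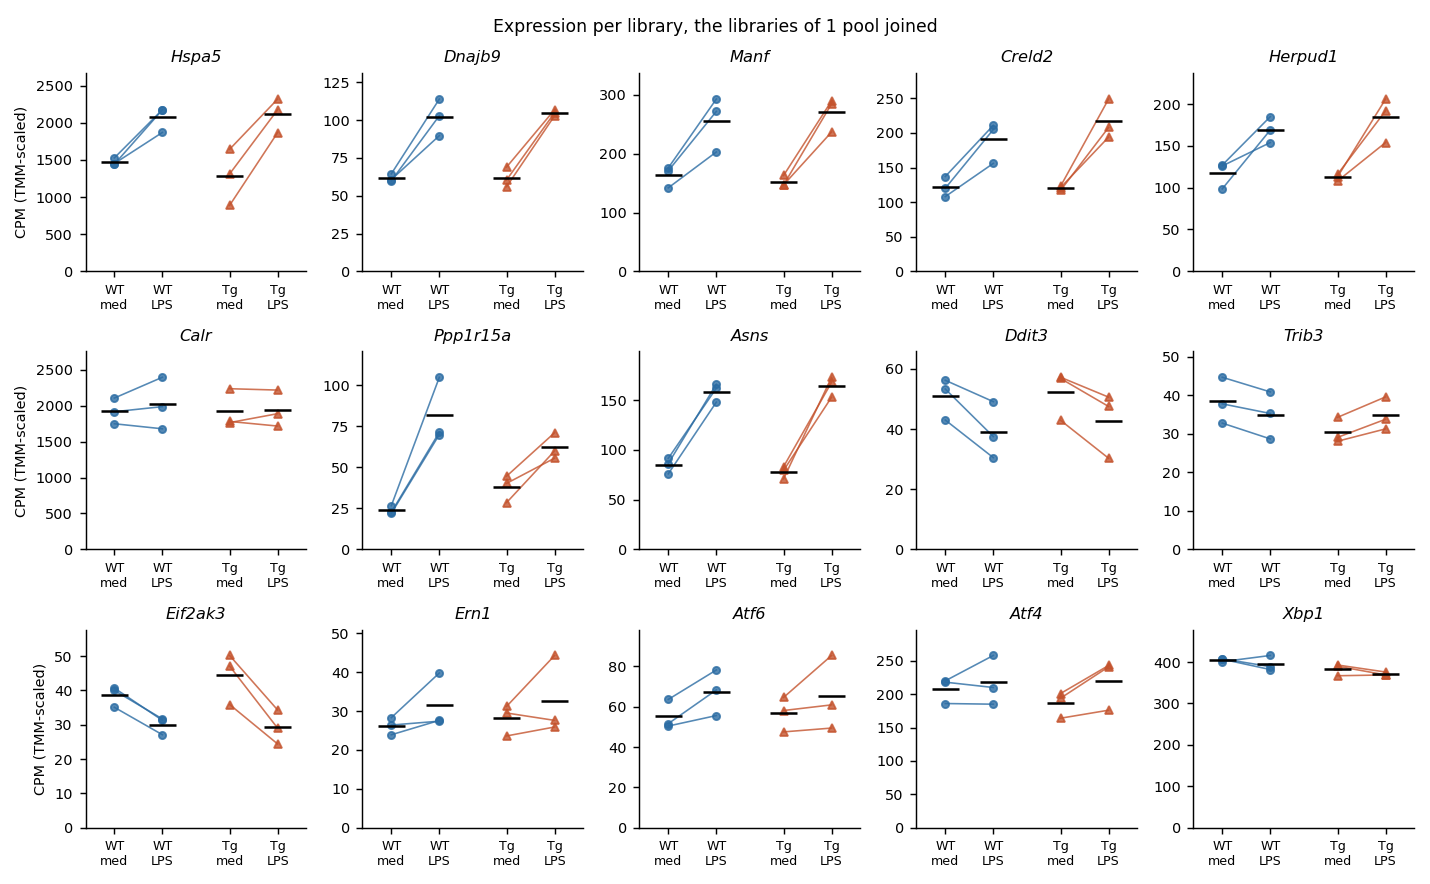
TMM-scaled CPM (y axis, from 0) of 15 members in the 12 libraries, by group (x axis), with lines joining the medium and LPS library of a pool and bars at the group means. Hspa5, Dnajb9, Manf, Creld2, Herpud1, Ppp1r15a and Asns are higher with LPS in each pool, Eif2ak3 and Ddit3 are lower in each pool, and Xbp1 stays between 367 and 416 CPM.

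The transcripts of the sensors did not move together. Eif2ak3, which encodes PERK, stood at 40.0, 40.7 and 35.1 CPM in WT medium and 31.7, 31.3 and 27.1 CPM in WT LPS. In Scnn1b-Tg it stood at 50.2, 35.9 and 47.1 CPM in medium and 34.3, 24.4 and 29.0 CPM with LPS. The treatments did not overlap in either genotype, and Eif2ak3 fell by 0.36 ± 0.11 on the log2 scale in WT (adjusted p = 0.0245, edgeR) and by 0.61 ± 0.11 in Scnn1b-Tg (adjusted p = 0.00101). The WT call was lost when WT medium 17 or 18 or any WT LPS library was left out (adjusted p 0.0555 to 0.105), and the Scnn1b-Tg call held in all 21 alternatives. Its exons overlap those of Gm43292 over 8.0% of their length.

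Ern1, which encodes IRE1, stood at 26.4, 28.3 and 23.9 CPM in WT medium and 27.4, 39.8 and 27.6 CPM in WT LPS, and at 31.2, 23.6 and 29.5 CPM in Scnn1b-Tg medium and 44.3, 25.9 and 27.6 CPM in Scnn1b-Tg LPS. The 2 high LPS values were those of the pools numbered 17, and the changes of 0.27 ± 0.16 and 0.19 ± 0.16 did not pass (adjusted p = 0.239 and 0.397). Atf6 stood at 51.6, 63.6 and 50.4 CPM in WT medium and 68.3, 78.2 and 55.6 CPM in WT LPS, and at 64.6, 47.5 and 58.1 CPM in Scnn1b-Tg medium and 85.4, 49.4 and 60.9 CPM in Scnn1b-Tg LPS. Its level was highest in the pools numbered 17 in every group, and its treatments overlapped in both genotypes. The log2 changes were 0.28 ± 0.13 (adjusted p = 0.141) and 0.18 ± 0.13 (adjusted p = 0.319), and that in WT passed with the pool as a fixed term (adjusted p = 0.0368) and not as a random effect (adjusted p = 0.0501). Ern1 and Atf6 have long transcripts, and the 12 members above 4 kb of exon had a median deviation from their group mean of 0.07 to 0.22 in the libraries of the pools numbered 17, against -0.20 to 0.08 in the others. The part of this length skew in the results was not tested.

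Xbp1, whose spliced form encodes the transcription factor of the IRE1 branch, stood at 401, 407 and 408 CPM in WT medium and 416, 382 and 389 CPM in WT LPS, and at 393, 390 and 367 CPM in Scnn1b-Tg medium and 376, 369 and 369 CPM in Scnn1b-Tg LPS. Its total level varied little, with intervals of the LPS change of -0.16 to 0.09 in WT and -0.17 to 0.08 in Scnn1b-Tg. Atf4, the transcription factor of the integrated stress response, stood at 218, 186 and 220 CPM in WT medium and 210, 185 and 258 CPM in WT LPS, and at 164, 194 and 201 CPM in Scnn1b-Tg medium and 176, 241 and 243 CPM in Scnn1b-Tg LPS. Treatments overlapped in both genotypes. Its changes were 0.06 ± 0.09 (adjusted p = 0.7) and 0.23 ± 0.09 (adjusted p = 0.071), and the second passed with the pool as a block (adjusted p = 0.0349) and without WT medium 16 (adjusted p = 0.0383).

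The 6 targets of the integrated stress response split. Ppp1r15a, the subunit by which cells end eIF2 phosphorylation, had the largest LPS change of any member in WT. It stood at 26.7, 22.0 and 22.7 CPM in WT medium and 105, 70.1 and 71.5 CPM in WT LPS, and at 40.3, 28.6 and 44.7 CPM in Scnn1b-Tg medium and 55.7, 60.1 and 71.2 CPM in Scnn1b-Tg LPS. LPS libraries lay above medium libraries in both genotypes, with a narrower gap in Scnn1b-Tg. The log2 change was 1.78 ± 0.20 in WT (3.44-fold, adjusted p = 4.6e-05, edgeR) and 0.72 ± 0.19 in Scnn1b-Tg (1.65-fold, adjusted p = 0.0121). The Scnn1b-Tg call was lost without Scnn1b-Tg medium 18 or Scnn1b-Tg LPS 19 (adjusted p 0.0501 and 0.054).

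Asns, the enzyme that makes asparagine, stood at 91.6, 86.3 and 76.0 CPM in WT medium and 162, 166 and 148 CPM in WT LPS, and at 83.2, 79.5 and 71.0 CPM in Scnn1b-Tg medium and 168, 153 and 173 CPM in Scnn1b-Tg LPS. The groups lay far apart relative to their spread, and the change was 1.88-fold in WT (log2 0.91 ± 0.08, adjusted p = 6.79e-06, edgeR) and 2.11-fold in Scnn1b-Tg (log2 1.08 ± 0.08, adjusted p = 1.32e-06). It passed under every alternative, with log2 values from 0.89 to 0.95 and from 1.02 to 1.12.

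Ddit3, which encodes the transcription factor CHOP of prolonged ER stress, stood at 53.3, 43.0 and 56.2 CPM in WT medium and 37.5, 30.5 and 49.1 CPM in WT LPS, and at 42.9, 57.2 and 56.8 CPM in Scnn1b-Tg medium and 30.3, 50.6 and 47.5 CPM in Scnn1b-Tg LPS. Each LPS library lay below the medium library of its pool, but the groups overlapped. It fell by 0.40 ± 0.12 in WT (adjusted p = 0.0266, edgeR), a call lost without WT medium 16 or WT LPS 17 or 18 (adjusted p 0.0619 to 0.108). The change in Scnn1b-Tg was -0.31 ± 0.12 (adjusted p = 0.07), and it passed with the pool as a block (adjusted p = 0.0253) and without WT medium 16 (adjusted p = 0.0354). Exons of Ddit3 overlap other genes over 6.1% of their length.

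Sesn2, a stress-induced inhibitor of mTORC1, was lower in all 6 pools, from 51.8 to 67.2 CPM in WT medium to 29.2 to 50.8 CPM in WT LPS, and from 53.4 to 56.2 CPM to 35.7 to 43.0 CPM in Scnn1b-Tg. The groups did not overlap, while the changes of -0.48 ± 0.18 in each genotype just missed the threshold (adjusted p = 0.0606 and 0.0536) and passed with the pool as a block (adjusted p = 0.00506 and 0.0053). Leaving out WT LPS 17 also brought both past it (-0.67 in WT, adjusted p = 0.0177), and leaving out WT LPS 16 that in Scnn1b-Tg. Trib3, a pseudokinase that restrains ATF4 and CHOP, had changes of -0.14 ± 0.15 and 0.20 ± 0.15 (adjusted p = 0.558 and 0.359), the second of which passed with the pool as a fixed term (adjusted p = 0.0381) and neither with the pool as a random effect (adjusted p = 0.185) nor with the replicate number as a block (adjusted p = 0.0914). Chac1, which degrades glutathione, had changes of -0.19 ± 0.17 and 0.18 ± 0.17 (adjusted p = 0.447 and 0.454).

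Set beside the promoter stretches, members with the same element fell on both sides of the test. Of the 8 with an ER stress response element, Hspa5 and Creld2 rose in WT, and these with Hsp90b1, Dnajc3 and Syvn1 rose in Scnn1b-Tg, whereas Calr, Canx and Pdia6 passed in neither. Both ERSE-II members, Herpud1 and Dnajb11, rose in both genotypes. Among the 4 with a C/EBP-ATF element, Asns and Herpud1 rose in both genotypes, and Trib3 and Chac1 passed in neither. Of 15 tested genes outside the list with either form of the ER stress response element, 3 rose (Derl3, Rcl1 and Ero1lb) and 1 fell (Adcy3) in each genotype. Their median log2 changes were -0.01 in WT and -0.02 in Scnn1b-Tg. Of all genes 15.5% rose and 16.2% fell in WT, and 19.3% rose and 18.7% fell in Scnn1b-Tg, so the 15 did not stand out. The data hold no measurement of binding at these sites.

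The genotypes were compared at rest and after LPS to ask whether the muco-obstructed airway leaves AMs with another stress response state. By edgeR none of the 32 members passed in medium, with LPS or for the difference between LPS responses. Over all genes 0.335% passed in medium, 0.051% with LPS and 0.0% for the difference between responses. At an unadjusted p under 0.05 there were 5 members in medium (15.6%), 0 with LPS and 2 for the difference between responses (6.25%), against 13.4%, 7.12% and 5.95% of all genes. DESeq2 called 1 member in medium and 1 for the difference, Ppp1r15a in both, and 0 with LPS. Of the 13729 genes tested, DESeq2 called 501 in medium, 77 for the difference and 146 with LPS. In medium the 1 of 32 members thus did not exceed the DESeq2 share of all genes. In medium 24 of the 32 fitted differences lay within 0.20 of 0 on the log2 scale, and with LPS 30.

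Of the members, Ppp1r15a had the largest fitted genotype difference in each treatment. Scnn1b-Tg libraries in medium (28.6 to 44.7 CPM) all lay above WT libraries (22.0 to 26.7 CPM), while with LPS Scnn1b-Tg (55.7 to 71.2 CPM) and WT (70.1 to 105 CPM) overlapped. In medium the log2 difference was 0.70 ± 0.20 (interval 0.30 to 1.09, unadjusted p = 0.00542, adjusted p = 0.171 by edgeR, 0.0356 by DESeq2), with 0.73 in batch 1 and 0.66 in batch 2. With LPS it was -0.37 ± 0.20 (adjusted p = 0.799), with -0.62 and -0.13 in the batches. Each batch value rests on 1 library of 1 genotype, Scnn1b-Tg 17 in batch 1 and WT 18 in batch 2. The LPS change was smaller in Scnn1b-Tg by a log2 of 1.06 ± 0.27 (coded as -1.06, interval -1.60 to -0.53, unadjusted p = 0.00261, adjusted p = 0.498 by edgeR, 0.0455 by DESeq2). No change of a Scnn1b-Tg pool (0.47 to 1.07) reached that of a WT pool (1.66 to 1.97). The share of all genes whose pool changes separated the genotypes in this way was not counted. Over its alternatives the difference between responses ranged from -1.23 to -0.85.

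The other 4 members with an unadjusted p under 0.05 in medium were Atf4, lower in Scnn1b-Tg by 0.27 ± 0.09 (coded as -0.27, adjusted p = 0.256), Sel1l at -0.36 ± 0.14 (adjusted p = 0.311), Trib3 at -0.37 ± 0.16 (adjusted p = 0.346), and Eif2ak3, higher at 0.29 ± 0.11 (adjusted p = 0.29). Each kept its direction in both batches, although 1 genotype had only 1 library in each. Groups did not overlap for 3 members in medium (Ppp1r15a, Sel1l and Xbp1, 9.38%), where 18.4% of all genes did not, and for 1 with LPS (Xbp1, 3.12%), where 9.11% of all genes did not. Xbp1 was lower in Scnn1b-Tg in every library of each treatment, by 0.07 in medium and 0.08 with LPS, without passing the test. The sums of epithelial, dendritic cell and neutrophil markers given above also differed by genotype, as did that of AM markers in medium. The part of these marker sums in the differences of the members was not tested.

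**Figure D4:**
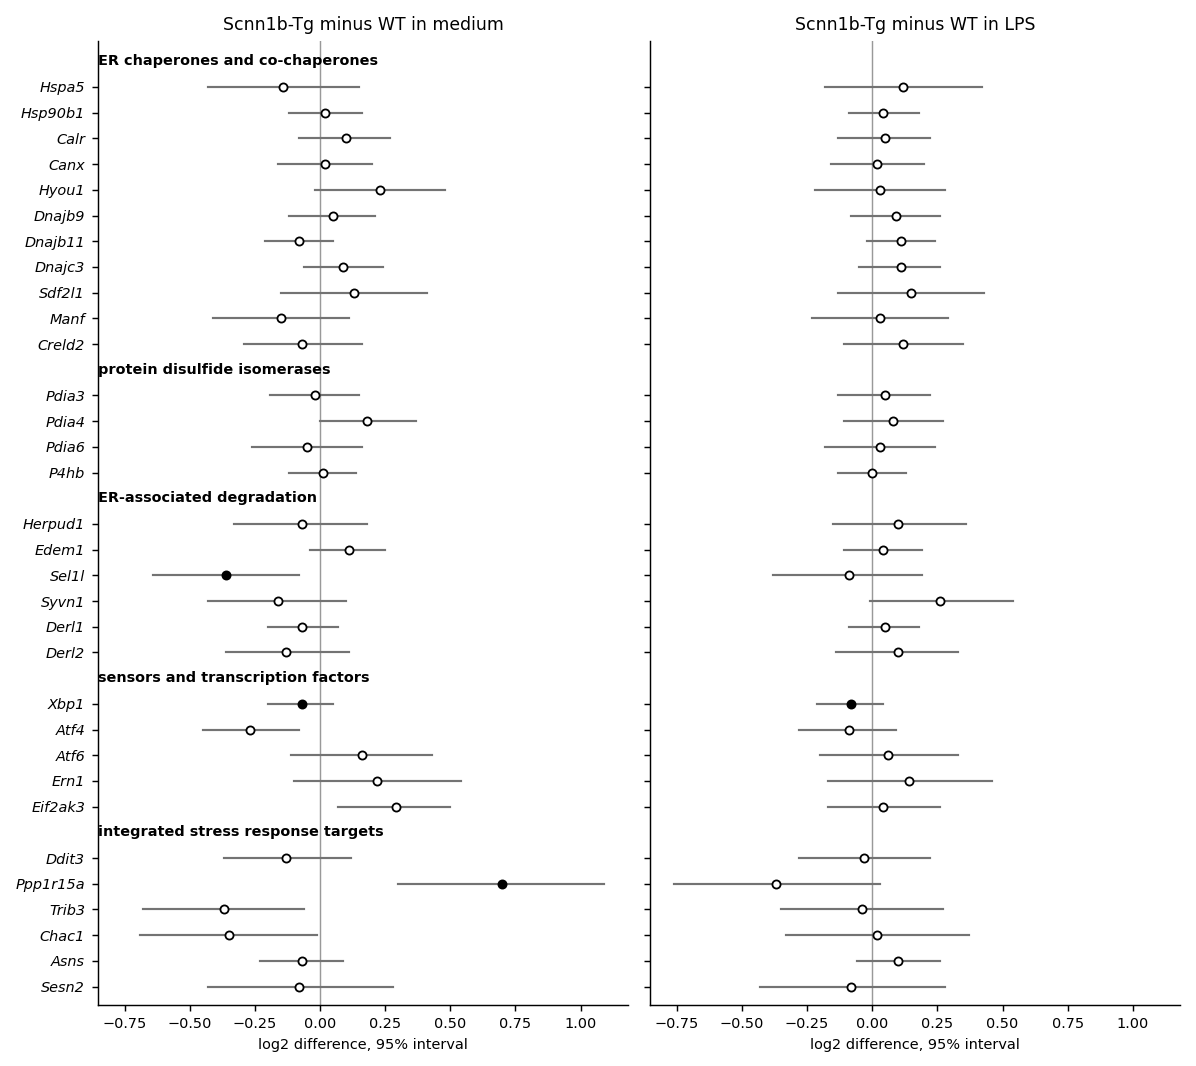
Scnn1b-Tg minus WT on the log2 scale for the 32 members in medium (left) and with LPS (right), as fitted values with 95% intervals. Filled points mark members whose 3 Scnn1b-Tg and 3 WT libraries do not overlap, and Ppp1r15a in medium, at 0.70, lies farthest from 0.

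The wider pathways were described through 157 further genes in 11 lists, of which 153 were tested. With LPS 56 rose and 5 fell in WT, and 71 rose and 7 fell in Scnn1b-Tg, with median log2 changes of 0.23 and 0.29. The shares over all genes, beside which each list below is to be read, were 15.5% higher and 16.2% lower in WT. In Scnn1b-Tg they were 19.3% and 18.7%. In the list of other ER folding genes 12 of 20 rose in each genotype, among them Hspa13, an HSP70 of microsomes (0.82 in both genotypes, adjusted p = 3.28e-05 and 2.28e-05), and Txndc5, a disulfide isomerase (0.59 and 0.60). None of them fell in WT and 2 fell in Scnn1b-Tg, Fkbp11 and Erp29, the latter by 0.52 (adjusted p = 0.0118). In the list of other degradation genes 8 and 10 of 18 rose and 0 fell, with Nploc4, a cofactor of the VCP segregase, at 0.71 and 0.89. Of 22 genes of the translocon, signal peptidase and oligosaccharyltransferase, 6 and 7 rose, such as Ssr3 (0.53 and 0.68) and Sec61a1, the channel itself (0.48 and 0.51). None fell in WT, and Stt3b, a catalytic subunit of the oligosaccharyltransferase, fell in Scnn1b-Tg by 0.30 (adjusted p = 0.0437).

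Of the 153 genes, the amino acid transporters Slc7a11 and Slc6a9 rose most in both genotypes. Of 9 amino acid transporters 5 rose in each genotype and 0 fell. Slc7a11, the cystine importer, rose from 371 to 1792 CPM in WT (log2 2.26 ± 0.13, adjusted p = 3.36e-07) and from 265 to 1818 CPM in Scnn1b-Tg (2.79 ± 0.13, adjusted p = 5.57e-08), as group means. Slc6a9, a glycine transporter, rose from 4.55 to 24.0 CPM and from 4.06 to 26.5 CPM. Among 11 enzymes of amino acid synthesis and one-carbon metabolism 5 rose and 1 fell in each genotype, Phgdh, the first enzyme of serine synthesis, by 1.06 ± 0.10 and 1.38 ± 0.10 and Psat1, its successor, by 0.92 ± 0.27 in Scnn1b-Tg (adjusted p = 0.0206, with 0.65 ± 0.27 and 0.0967 in WT). Psph, the last enzyme of that route, fell in WT by 0.45 ± 0.14 (adjusted p = 0.0314), with -0.30 ± 0.14 in Scnn1b-Tg (adjusted p = 0.126). The gene that fell in Scnn1b-Tg was Got1, an aspartate aminotransferase, by 0.30 ± 0.08 (adjusted p = 0.0143).

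Of 20 cytosolic aminoacyl-tRNA synthetases, many of which are targets of ATF4, 2 rose in WT and 7 in Scnn1b-Tg, Rars by 0.29 and 0.50. Of all genes 15.5% rose in WT and 19.3% in Scnn1b-Tg, so in WT this list did not exceed the share of all genes. Of 12 genes of the eIF2 kinases, eIF2 and eIF2B, 3 and 6 rose and 1 fell. Eif2ak2, the kinase PKR that senses double-stranded RNA, rose by 0.85 ± 0.14 and 0.78 ± 0.14, whereas Eif2ak4, the kinase GCN2 that senses amino acid shortage, fell by 0.37 ± 0.13 (adjusted p = 0.0484) and 0.58 ± 0.13 (adjusted p = 0.00447). Of 10 other factors linked to ATF4, 3 and 4 rose and 2 fell, with Sqstm1, the autophagy receptor p62, up by 0.92 ± 0.19 and 1.32 ± 0.19 and Bbc3, the apoptosis gene PUMA, down at -0.85 ± 0.10 and -0.86 ± 0.10. The other that fell was Cebpg, a dimer partner of ATF4, at -0.30 ± 0.08 and -0.35 ± 0.08. Among 7 other ER stress transducers Atf6b rose (0.42 and 0.60), Creb3l1 rose in Scnn1b-Tg (0.83) and Creb3 fell in WT (-0.26).

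Outside the ER, 9 and 11 of 15 genes of the cytosolic heat shock response rose and 0 fell, with Hsp90aa1, the inducible HSP90, at 1.04 ± 0.09 and 1.07 ± 0.09. Of 9 mitochondrial chaperones and proteases 2 rose in each genotype, Hspd1 (0.38 and 0.63) and Hspa9 (0.25 and 0.34). None of the 153 genes passed by edgeR between the genotypes in medium, with LPS or for the difference between responses. In these comparisons 21, 10 and 16 (13.7%, 6.54% and 10.5%) had an unadjusted p under 0.05, against the 13.4%, 7.12% and 5.95% of all genes. DESeq2 called 7, 2 and 0 of the 153, and 501, 146 and 77 of all 13729 genes tested.

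**Figure D5:**
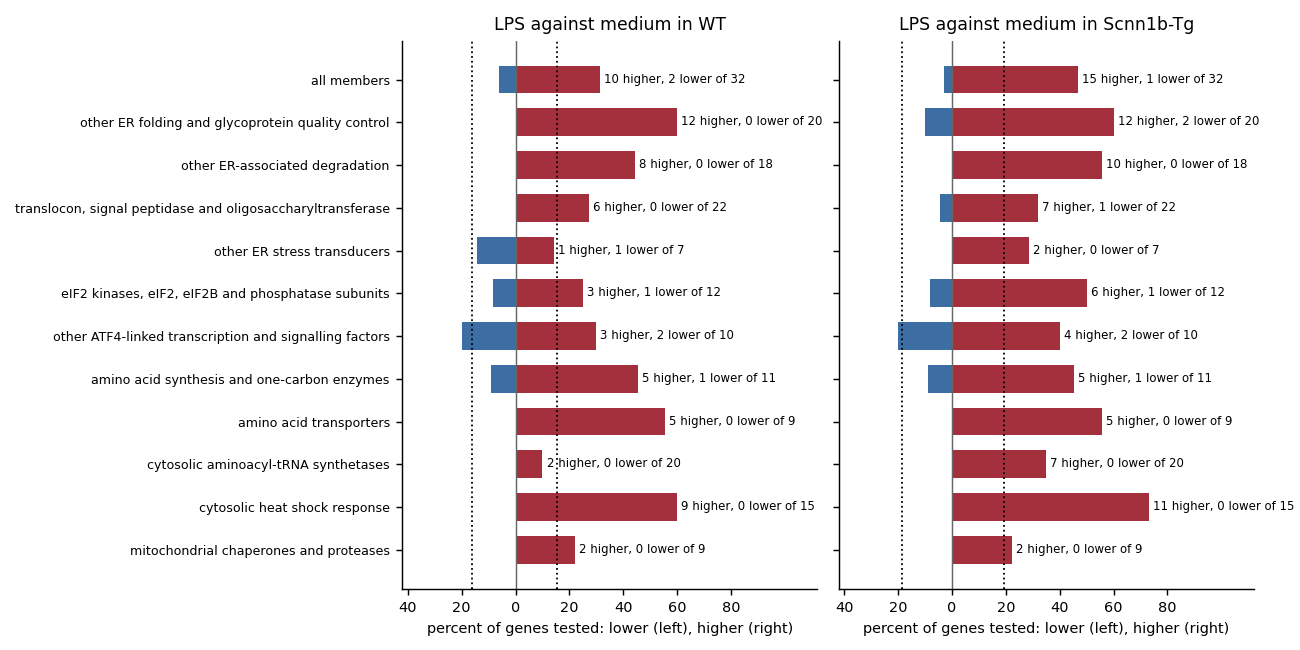
Percent of tested genes that rose (right of 0) or fell (left of 0) with LPS in WT (left panel) and Scnn1b-Tg (right panel), for the 32 members and 11 related lists, with dotted lines at the shares over all genes (15.5 and 16.2% in WT, 19.3 and 18.7% in Scnn1b-Tg). Other ER folding genes (12 of 20) and cytosolic heat shock genes (9 of 15 and 11 of 15) have the longest bars to the right.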

How the data were processed

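The authors deposited estimated counts per gene. Per the labels and methods, reads (SMART-Seq v4 libraries, paired-end) were aligned to mm10 with HISAT2 without strand, and StringTie with GENCODE M20 turned coverage into whole-number counts. This conversion multiplies coverage by length, so 1 read pair can be worth more than 1 count. Of low values, 55.3% were 0 or 3 above a multiple of 5, against 40.0% for an even spread, so division by 5 was an alternative. The floor of 8 counts stands for 3 reads at 5 counts a read pair, and such limits cover counting error only. All 12 libraries were used and grouped by the labels. The pools are separate sets of animals.

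The members and gene lists were chosen with earlier results of these data known. Symbols came from GENCODE M21 (20132 of 20551 IDs matched). With edgeR 4.0.16 (R 4.3.3), low genes were removed with filterByExpr by group (minimum count 10, total 15), counts were scaled by TMM, and fitted by quasi-likelihood with a term per group and the batch, which the labels number 1 and 2 and the methods give as the library preparation date. Tests were two-sided, with Benjamini-Hochberg adjustment over 13729 genes and a threshold of 0.05. CPM are TMM-scaled, and changes by pool or batch are differences of log2 CPM with a prior count of 2. Intervals are 95% by a normal approximation from the fitted value and its SE. They are narrower than 95% intervals of the quasi-likelihood test, which allows for the small number of libraries. The script was tested on simulated data. Alternatives were DESeq2 1.42.0, no filter, RLE scaling, division by 5, no batch term, the pool as a block (fixed term, or random effect in limma 3.58.1), the replicate number instead of batch, only the groups compared, and leaving out each library. The medium and LPS library of a genotype that share a number in their titles come from the same pool, and the pairing rests on this. Their deviations had r = 0.139 to 0.338 in the 6 pools (-0.251 to 0.156 with the batch removed), and libraries sharing a number but no pool had r = 0.115 to 0.265 (-0.205 to -0.042). Values given with the pool as a block are from the fixed term unless said otherwise.

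Named genes were the members that passed in any comparison. Values per library were given for the 3 largest rises and falls of each comparison and for Xbp1, Atf4, Atf6, Ern1, Eif2ak3 and Ddit3, and for Hspa5, Calr, Herpud1 and Syvn1, which were added after their values were seen. Fkbp11 was likewise added. Of each further list, at most the 2 largest rises and falls with LPS per genotype at a mean of at least 5 CPM were named.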

Additional observations from a re-analysis of the deposited data

Results flagged for a closer look

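Trib3 was singled out because its LPS change had opposite signs in the genotypes. It stood at 32.8, 44.7 and 37.8 CPM in WT medium and 28.7, 40.9 and 35.3 CPM in WT LPS, and at 28.1, 29.1 and 34.3 CPM in Scnn1b-Tg medium and 31.3, 33.8 and 39.6 CPM in Scnn1b-Tg LPS. The log2 change was -0.19, -0.13 and -0.10 in the 3 WT pools and 0.16, 0.22 and 0.21 in the 3 Scnn1b-Tg pools, so that all 6 pools followed their genotype. How many of all genes split in this way was not counted, so the split alone does not set Trib3 apart. The fitted difference between the responses was 0.33 ± 0.22 (interval -0.10 to 0.76) and did not pass (unadjusted p = 0.157, adjusted p = 0.925, edgeR). Over its alternatives this difference ranged from 0.18 to 0.49 and passed in none of 20. The treatments overlapped in both genotypes.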

How the results depend on the processing

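The count of members called with LPS in WT was 12 and ranged over the alternatives from 7 without a batch term to 18 with the pool as a fixed term, and in Scnn1b-Tg it was 16, with 12 and 22 under the same settings. Apart from the 7, every count stayed within 1.5 times the one reported. The cause of the lower count was not tested. DESeq2 gave 17 in each genotype. Leaving out 1 library gave 8 to 12 in WT and 11 to 18 in Scnn1b-Tg. Between the genotypes, the count of 0 members became 1 in medium with DESeq2 and 1 for the difference between responses with DESeq2, Ppp1r15a in both, and was 0 to 0 in every fit without 1 library, as it was with LPS. With DESeq2, 501 genes passed in medium, 146 with LPS and 77 for the difference between responses, against 46, 7 and 0 by edgeR, and other settings moved the counts of 46 and 7 by over 1.5 times (28 and 4 without a batch term, 18 genes in medium without the filter, 20 and 2 with only the groups compared, 77 and 12 with replicate number as the block instead of batch, 11 with LPS with the pool as a random effect, and 3 to 49 and 2 to 10 without 1 library, with the 3 when Scnn1b-Tg medium 17 was left out). With the pool as a replicate block, 18 and 22 members passed as a fixed term and 17 and 21 as a random effect, and 0 for the difference between responses. The calls that the block changed are given beside those members, and with it as a fixed term no call was lost. No member called with LPS changed sign under these alternatives.

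With 3 libraries a group, the 95% interval of the genotype difference in medium was -0.12 to 0.14 for P4hb and 0.30 to 1.09 for Ppp1r15a. The Ppp1r15a interval excludes equality, yet the difference did not pass by edgeR after adjustment over 13729 genes (adjusted p = 0.171). Genotype differences of the members may thus have been missed, and the lack of calls does not show equal levels. Batch 1 holds WT pools 16 and 17 and Scnn1b-Tg pool 17, and batch 2 holds WT pool 18 and Scnn1b-Tg pools 18 and 19. Genotype and batch are thus not balanced, and the pools numbered 17 are both in batch 1. Transcript totals do not show Xbp1 splicing, Atf4 translation or protein.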
